A study of Mus musculus with 8 samples.

Results

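Cdsn and Grhl3 were read together with 8 other genes of squamous differentiation in mouse kidney tubuloids, and the 10 genes made up 10 of the 24063 genes counted. Cdsn and Grhl3 were chosen from the genes called higher in DOX than in DMSO in these same libraries, and Grhl1, Grhl2, Trp63, Dsg3, Dsc3, Ivl, Sprr1a and Sfn were chosen by name as genes of the same differentiation programme, with earlier results of these data known. The DOX and DMSO values of these genes are therefore a description, and no p-value is given for them. The files held a row for every one of the 10 genes, with 1 transcript each for Cdsn, Grhl2, Grhl3, Dsg3, Ivl, Sprr1a and Sfn, 2 each for Grhl1 and Dsc3, and 8 for Trp63.

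Tubuloids are tubule-forming cultures grown in Matrigel from fragments of whole mouse kidney. The labels placed the kidneys at postnatal days 7 to 10, whereas the methods of the study gave a younger age. All 8 libraries, controls included, carried the genotype Pkd2fl/fl Pax8rtTA TetOCre mTmG. In these cells the Pax8 promoter drives the doxycycline-dependent transactivator in renal epithelium, so that doxycycline turns on Cre, which cuts the floxed Pkd2 alleles and switches the colour of the mTmG reporter, while stromal cells of the same culture are not targeted. From day 3 of culture, 4 cultures received doxycycline (DOX, libraries 9, 21, 19 and 12) and 4 received the vehicle DMSO (libraries 15, 20, 3 and 5) for 3 days, and RNA was taken on day 7. No culture without the floxed alleles received doxycycline in the libraries used here, so that an effect of the drug and an effect of Pkd2 loss cannot be told apart. Every p-value below measures the spread between these cultures.

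The outer layers of skin, oesophagus and other stratified epithelia form by squamous differentiation, in which basal cells leave the basement membrane, tighten their desmosomes and build a cross-linked protein shell, the cornified envelope, under the plasma membrane. Trp63 encodes p63, the transcription factor that defines basal cells of stratified epithelia. Grhl1, Grhl2 and Grhl3 encode the grainyhead-like transcription factors, of which Grhl2 also acts in simple epithelia such as kidney tubules, whereas Grhl3 is best known for forming the skin barrier. Simple kidney tubules do not cornify.

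Summed counts per library ran from 63922677 to 102716313, and the libraries DMSO 20 and DOX 19 detected 13243 and 13599 genes against 17054 to 17903 in the other 6. Pkd2 itself lay at 4813 to 7538 normalised counts in DMSO and 4136 to 5952 in DOX. Its log2 fold change of -0.31 ± 0.21 (SE, n = 4 and 4) did not pass DESeq2 (adjusted p = 0.999). These counts cover the whole gene and all cells of a culture, so they do not measure the cut of the floxed alleles. At the protein level, the study reported less polycystin-2, the product of Pkd2, in tubuloids after doxycycline, with some still detected. A normalised count is the summed read count of a gene divided by the size factor of its library. Genes count as called where the adjusted p of DESeq2 was 0.05 or less and the fold 1.5 or more. Of 17011 genes with an adjusted p, 25 were called (0.147%), 14 higher and 11 lower in DOX. The quasi-likelihood fit of edgeR called none of its 15562 genes (0 of 15562, or 0%). Before adjustment, 899 genes in DESeq2 and 476 in edgeR were under 0.05.

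Promoter windows, the 250 bases before and 50 bases after a transcript start in RefSeq on GRCm38.p6, were read for 6 of the 10 genes in 8 windows. The windows of Cdsn and Grhl3 are shown because these are the genes of the 10 that were called, and those of Ivl and Sprr1a because they held the motif named AP-1, the binding site of Fos and Jun proteins, searched on both strands as TGANTCA. Capitals mark an AP-1 match, and all 4 runs are written 5′ to 3′ on the strand of the gene.
Cdsn, chr17:35551878-35552177, + strand: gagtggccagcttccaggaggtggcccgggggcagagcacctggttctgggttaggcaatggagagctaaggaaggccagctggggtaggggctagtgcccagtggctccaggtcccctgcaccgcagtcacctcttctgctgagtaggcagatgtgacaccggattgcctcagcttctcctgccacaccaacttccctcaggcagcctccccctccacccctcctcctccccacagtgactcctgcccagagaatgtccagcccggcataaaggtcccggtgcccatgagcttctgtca
Grhl3, chr4:135573583-135573882, − strand: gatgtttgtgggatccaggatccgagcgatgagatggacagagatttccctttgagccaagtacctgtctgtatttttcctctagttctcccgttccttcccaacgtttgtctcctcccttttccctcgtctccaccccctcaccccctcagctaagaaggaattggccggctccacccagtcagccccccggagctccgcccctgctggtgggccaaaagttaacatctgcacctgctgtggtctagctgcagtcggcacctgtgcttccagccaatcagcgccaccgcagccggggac
Ivl, chr3:92573686-92573985, − strand: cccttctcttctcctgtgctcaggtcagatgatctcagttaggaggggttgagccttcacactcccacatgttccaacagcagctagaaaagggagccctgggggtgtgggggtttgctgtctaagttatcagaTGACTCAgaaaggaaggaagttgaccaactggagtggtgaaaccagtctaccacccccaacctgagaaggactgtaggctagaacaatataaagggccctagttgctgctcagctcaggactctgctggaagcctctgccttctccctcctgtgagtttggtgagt
Sprr1a, chr3:92485832-92486131, − strand: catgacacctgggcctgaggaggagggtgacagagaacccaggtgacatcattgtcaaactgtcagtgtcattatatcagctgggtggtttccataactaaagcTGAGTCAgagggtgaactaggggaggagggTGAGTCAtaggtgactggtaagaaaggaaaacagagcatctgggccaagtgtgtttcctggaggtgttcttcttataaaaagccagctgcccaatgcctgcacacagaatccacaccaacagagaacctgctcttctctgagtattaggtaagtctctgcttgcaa

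The Cdsn window belongs to the transcript that was counted, which starts downstream of the other annotated start of the gene. The AP-1 letters were found in 2 of the 8 windows, once in Ivl at 116 bases before the start and in Sprr1a at 146 and 116 bases before the start, and in 2565 of 32851 promoters of the same length (7.81%). The palindrome AACCGGTT, which grainyhead-like proteins bind, was in 0 of the 8 windows and in 48 of the 32851 promoters (0.146%). A missing match says only that these letters were not in these windows.

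Cdsn encodes corneodesmosin, the glycoprotein that holds corneocytes together in the outermost skin. Normalised counts of Cdsn were 49.2, 0, 63.3 and 73.6 in DMSO 15, 20, 3 and 5 and 1674, 1345, 372 and 693 in DOX 9, 21, 19 and 12. The lowest DOX library stood above the highest DMSO library, and the 0 in DMSO 20 allows up to 3 counts at this depth. That bound covers counting error only, and DMSO 20 was the library with the fewest genes detected (13243). The part of low detection in this 0 was not tested. The DMSO mean was 46.5 ± 32.6 and the DOX mean 1021 ± 594 normalised counts (SD, n = 4 and 4), and the log2 fold change was 4.45 ± 0.997 (SE). In the deposited TPM, a level per length, Cdsn lay at 0.387, 0, 0.503 and 0.742 in DMSO and at 15.0, 12.1, 3.25 and 7.49 in DOX.

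Grhl3 had a lower TPM than Cdsn in 6 of the 8 libraries. Reads per library, normalised, came to 4.01, 0, 14.9 and 8.06 in the DMSO libraries and 94.2, 105, 828 and 39.8 in DOX 9, 21, 19 and 12. The groups did not overlap, and DOX 19 held most of the signal of the DOX group. The means were 6.74 ± 6.35 and 267 ± 375 (SD, n = 4 and 4), with a log2 fold change of 5.29 ± 1.21 (SE). Raw counts behind the DMSO values were 4, 0, 16 and 8 reads, so that the size of the fold rests on a few reads. In TPM the values were 0.0304, 0, 0.114 and 0.0783 in DMSO and 0.812, 0.907, 6.96 and 0.415 in DOX.

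**Figure D1:**
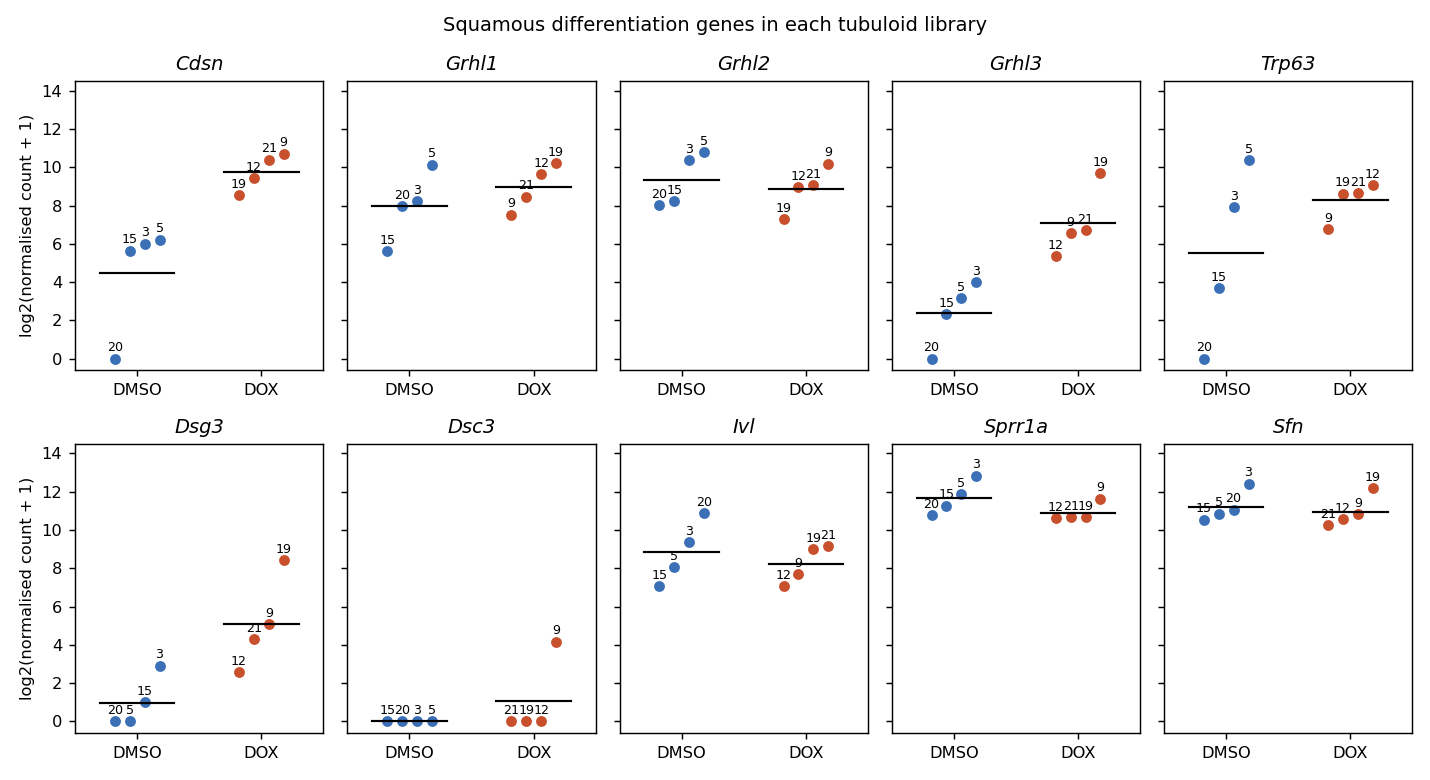
Each panel plots 1 gene as log2(normalised count + 1) in the 4 DMSO (blue) and 4 DOX (red) libraries, numbered by library, with the black line at the group mean. Cdsn and Grhl3 have no overlap between the groups, Grhl2, Ivl, Sprr1a and Sfn overlap, and Dsc3 has counts in DOX 9 alone.

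Of the 10 genes, 9 received an adjusted p, and Cdsn and Grhl3 were the 2 called, both higher, beside the 0.147% of all genes; since these genes were chosen from this contrast, nothing is read from the count. edgeR called 0 of the 8 it tested, beside 0% of all genes. Before adjustment, 3 of the 9 were under 0.05 in DESeq2, beside 5.28% of all genes, and 2 of the 8 in edgeR, beside 3.06%, and nothing is read from these counts either. Groups of normalised counts did not overlap in 2 of the 10 genes, beside 2.72% of 17550 genes with a mean of at least 2. With each library left out in turn, the call of Cdsn was lost in 3 of 8 fits (without DMSO 3, DOX 21 or DOX 9) and that of Grhl3 in 3 of 8 (without DMSO 5, DOX 12 or DOX 19). Over those fits the log2 fold change stayed between 4.04 and 4.77 for Cdsn and between 3.55, without DOX 19, and 6.03 for Grhl3.

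In the other grainyhead-like factors the groups overlapped. Normalised counts of Grhl1, which regulates desmosomal cadherins in skin, were 48.2, 247, 303 and 1123 in DMSO and 183, 353, 1172 and 794 in DOX 9, 21, 19 and 12. Its log2 fold change was 0.54 ± 0.90 (SE), and ran from 0.05 without DOX 19 to 1.65 without DMSO 5. Grhl2, a regulator of tubule epithelial junctions, had 300.0, 259.9, 1315 and 1783 in DMSO and 1163, 531, 153 and 503 in DOX, with a log2 fold change of -0.64 ± 0.79 that ran from -1.21 without DOX 9 to -0.09 without DMSO 5. In TPM, the 4 libraries with the most Grhl2 were DMSO 5, DMSO 3, DOX 9 and DOX 12. In normalised counts DOX 21 took the place of DOX 12 for Grhl2. Markers of renal epithelium matched the 4 of the TPM scale in part. The same 4 had the most Epcam, a surface protein of epithelial cells, and the most Cdh16. For Cdh1, DOX 19 (63.0 TPM) stood above DOX 12 (38.1 TPM), and the 4 highest in Pax8 were DOX 12, DMSO 5, DMSO 20 and DOX 19. DOX 19 had the lowest Grhl2 and the highest Grhl3 of the 8 libraries on both scales, whereas its Grhl1 was the highest in normalised counts and stood under DMSO 5 in TPM (8.34 against 9.24).

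Trp63 varied widely between cultures of the same treatment. Its normalised counts came to 12.0, 0, 239 and 1323 in DMSO and 109, 401, 391 and 528 in DOX, so that the lowest and the highest value were both DMSO libraries. The log2 fold change of -0.14 ± 1.51 (SE) became 2.10 when DMSO 5 was left out. The 8 transcripts of Trp63 share most of their exons and each read was counted for every transcript that it could belong to, so that the sum over transcripts counts a read several times: the sums were 12, 0, 257, 1313, 128, 382, 347 and 743 in DMSO 15, 20, 3 and 5 and DOX 9, 21, 19 and 12, and the highest single transcript had 4, 0, 49, 230, 19, 71, 87 and 130 reads.

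The isoforms of p63 start at separate promoters on chromosome 16. An upstream start gives the TA forms with a full transactivation domain, and a downstream start, 118.2 kb further on, gives the deltaN forms that basal keratinocytes express. The files held 3 transcripts of the upstream and 5 of the downstream start, and the difference between a TA and a deltaN transcript with the same 3′ end is the number of reads that fit only the TA 5′ exons minus the number that fit only the deltaN 5′ exons. It is a net value, so that a 0 can hold reads of both kinds, and it was the same for the long and the short 3′ end in 8 of 8 libraries because both pairs have the same 5′ exons. In DMSO 15, 20, 3 and 5 it was 0, 0, 9 and 36 reads, and in DOX 9, 21, 19 and 12 it was 0, 9, -43 and 8 reads. DOX 19 was the only library where the net value lay on the deltaN side, and its TA transcript with the long 3′ end had 0 reads against 43 of its deltaN counterpart.

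**Figure D2:**
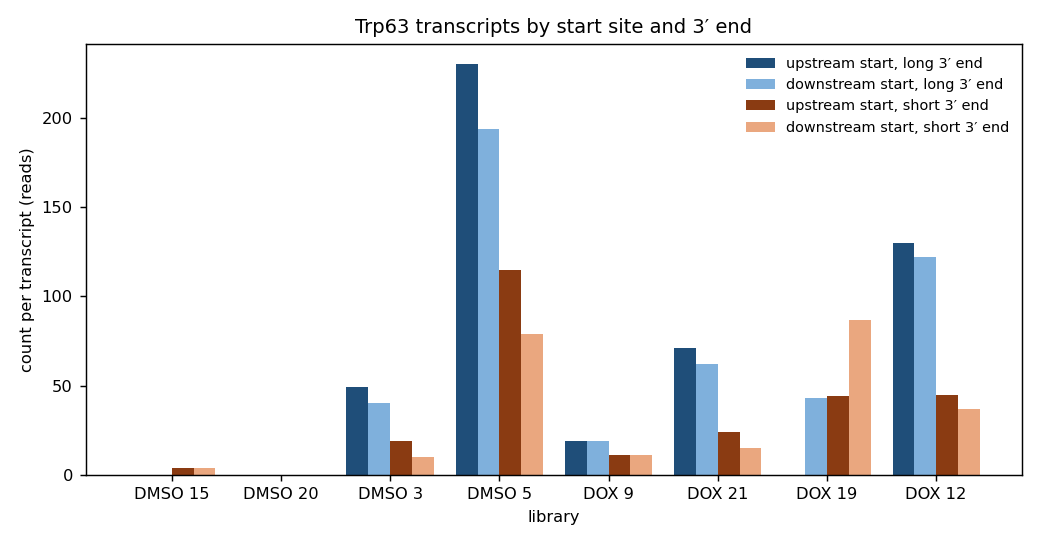
Bars give the read count of 1 Trp63 transcript of each start and 3′ end in each library, from 0, and reads shared by several transcripts appear in each of their bars. In DMSO 5 and DOX 12 the upstream bars (230 and 130) exceed the downstream bars (194 and 122), whereas in DOX 19 the downstream bars (43 and 87) exceed the upstream bars (0 and 44).

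Dsg3 and Dsc3 encode the desmosomal cadherins of basal and lower suprabasal keratinocytes. Dsg3 had normalised counts of 1.0, 0, 6.51 and 0 in DMSO and 33.1, 18.9, 341 and 4.98 in DOX 9, 21, 19 and 12. The groups overlapped between DMSO 3 and DOX 12, and DOX 19 held most of the reads. The log2 fold change of 5.70 ± 1.69 (SE) ran from 3.32 without DOX 19 to 7.99 without DMSO 3. Dsc3 was at 0 counts in 7 libraries, and in DOX 9 each of its 2 transcripts had the same 10 reads, which sum to 17.0 normalised counts. Dsc3 received no adjusted p, and a 0 allows up to 3 counts in a library by counting error alone.

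For the cornified envelope genes Ivl and Sprr1a the DMSO and DOX groups overlapped. Ivl encodes involucrin, an early scaffold of the envelope, and had normalised counts of 134, 1868, 663 and 269 in DMSO and 206, 575, 503 and 133 in DOX, with a log2 fold change of -1.05 ± 0.84 (SE) and its highest value in DMSO 20. Without DMSO 20 that log2 fold change was -0.0038. Sprr1a, a small proline-rich envelope protein, had 2462, 1741, 7293 and 3699 in DMSO and 3189, 1611, 1646 and 1580.3 in DOX, with a log2 fold change of -0.92 ± 0.50 that became -0.39 without DMSO 3. The lowest Sprr1a was in a DOX library in normalised counts and in TPM, whereas the lowest Ivl was in DOX 12 in normalised counts and in DMSO 15 in TPM. Sfn encodes stratifin, the sigma form of the 14-3-3 proteins, which epithelial cells induce on differentiation and after p53 activation. It had 1488, 2141, 5474 and 1851 in DMSO and 1818, 1231, 4596 and 1526 in DOX, overlapping, with a log2 fold change of -0.26 ± 0.58 that ran from -0.84 without DOX 19 to 0.33 without DMSO 3.

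**Figure D3:**
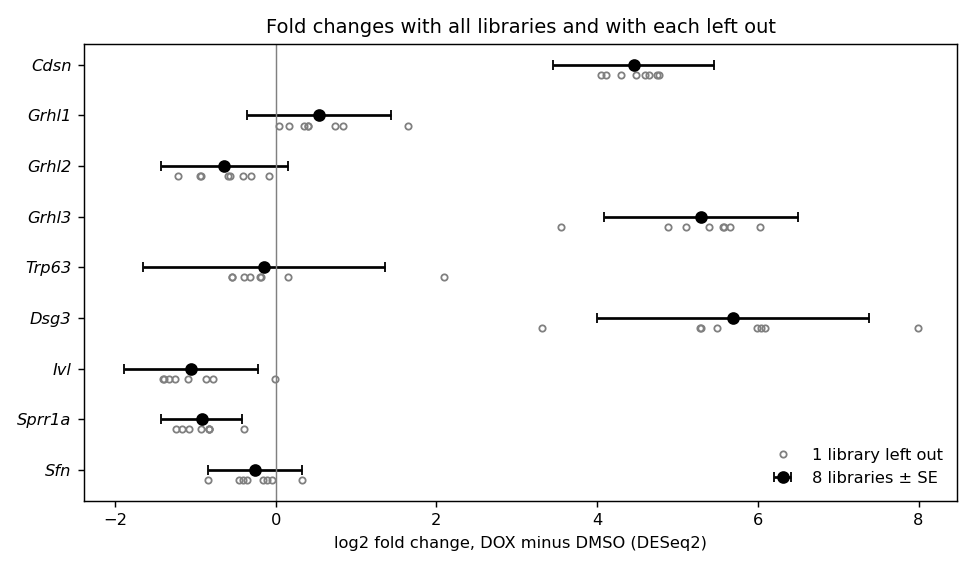
Black points are DESeq2 log2 fold changes, DOX minus DMSO, with bars of ± 1 SE, and open grey points the same value with 1 library left out. Dsc3, with counts in 1 library, is not drawn. Cdsn, Grhl3 and Dsg3 lie to the right of 0 with every library left out, while Trp63 runs to 2.10.

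In TPM, the median over the 8 libraries gave the order Sprr1a (61.8), Sfn (29.2), Ivl (4.94), Grhl2 (2.76), Grhl1 (2.27), Cdsn (1.99), Trp63 (1.82), Grhl3 (0.264), Dsg3 (0.0344) and Dsc3 (0). Sfn stood above Ivl in 8 of 8 libraries and Sprr1a above Sfn in 7 of 8, all but DOX 19. Grhl3 stood above Dsg3 in 7 of 8. From Ivl down to Trp63, neighbours in the order overlapped within each group and stood above each other in 4 or 5 of the 8 libraries. Genes further apart in the order could separate in 1 group: in DMSO, Ivl and Grhl2 lay above Cdsn in 4 of 4 libraries with no overlap, and in DOX Cdsn lay above Ivl in 3 of 4. Cdsn has no library near its pooled median, since its groups do not overlap: its group median was 0.445 TPM in DMSO, the 7th of the 10, and 9.77 TPM in DOX, the 3rd. Sprr1a and Sfn had the highest summed TPM, and Grhl3, Dsg3 and Dsc3 the lowest, by the medians of both groups; with the most counted transcript alone, the DOX median of Trp63 (0.203) was under that of Grhl3 (0.859). The values of Grhl1 and Trp63 are sums over transcripts that share reads. Their medians fell to 1.17 and 0.127 when the transcript with the most counts was taken instead. For Trp63 this was a TA transcript with 0 reads in DOX 19, where a deltaN transcript had 87. The lower Trp63 values thus also reflect which transcript was taken.

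**Figure D4:**
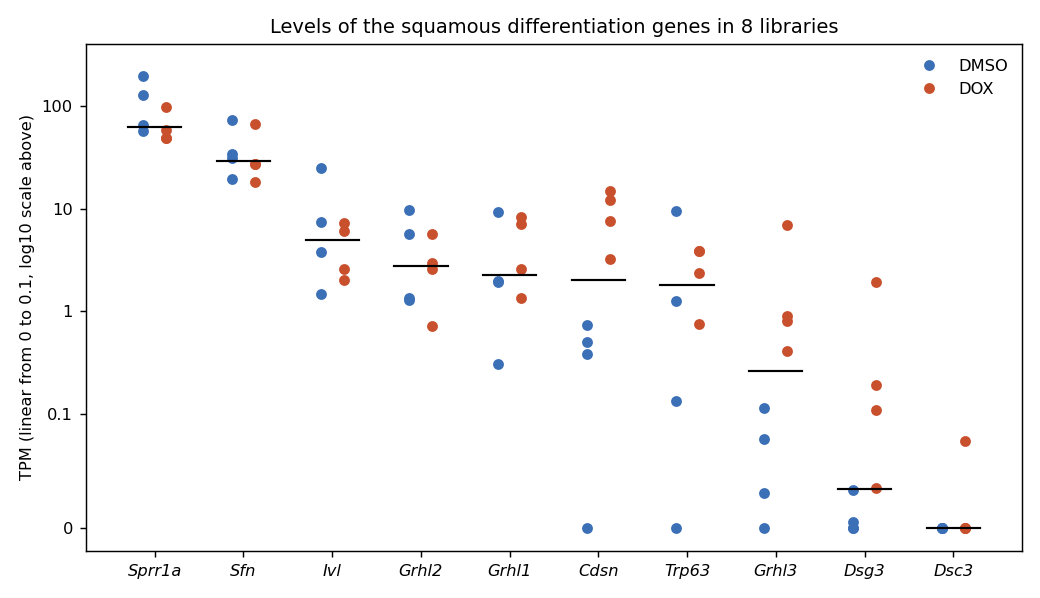
Points are TPM of the 10 genes in the DMSO (blue) and DOX (red) libraries, on an axis that is linear from 0 to 0.1 and logarithmic above, and black lines are the median of the 8 libraries. Sprr1a and Sfn lie at 18.3 or more in every library, and Dsg3 and Dsc3 stay under 2 TPM.

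DOX 19 stood apart among the DOX libraries. It was the highest DOX library in Grhl3, Dsg3, Grhl1 and Sfn and the lowest in Cdsn and Grhl2. Basal keratins of stratified epithelium were also highest there: Krt14, a basal keratinocyte keratin, reached 97.2 TPM and its partner Krt5 16.9 TPM, against 15.0 and 4.14 TPM in DOX 21. In the other 6 libraries Krt5 was at most 0.0557 TPM. Other genes of stratified epithelium were also present in the control DMSO 20: Krt6a, a keratin of activated keratinocytes, was at 3.97 TPM there, 1.86 in DOX 21, 7.80 in DOX 19 and at most 0.0281 in the other 5, and its partner Krt16 was at 6.37 TPM in DMSO 20 and 23.7 in DOX 19. These keratins were named after their values were seen. The summed TPM of Krt5, Krt14 and Krt15 was 3.66 to 14.1 in DMSO and 2.81 to 123 in DOX. Not every gene of basal cells was highest in DOX 19. Dsc3 was at 0 there, and Trp63, at 391 normalised counts, stood under DOX 21 (401), DOX 12 (528) and DMSO 5 (1323). Its net Trp63 value was the only 1 on the deltaN side. Whether cells of a stratified epithelium had a part in the values of Grhl3 and Dsg3 was not tested. Without DOX 19 alone, the log2 fold change of Grhl3 was 3.55 and its call was lost, and without DMSO 20 and DOX 19 together it was 3.17 and the gene was called; the log2 fold change of Cdsn was 4.35 without both.

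**Figure D5:**
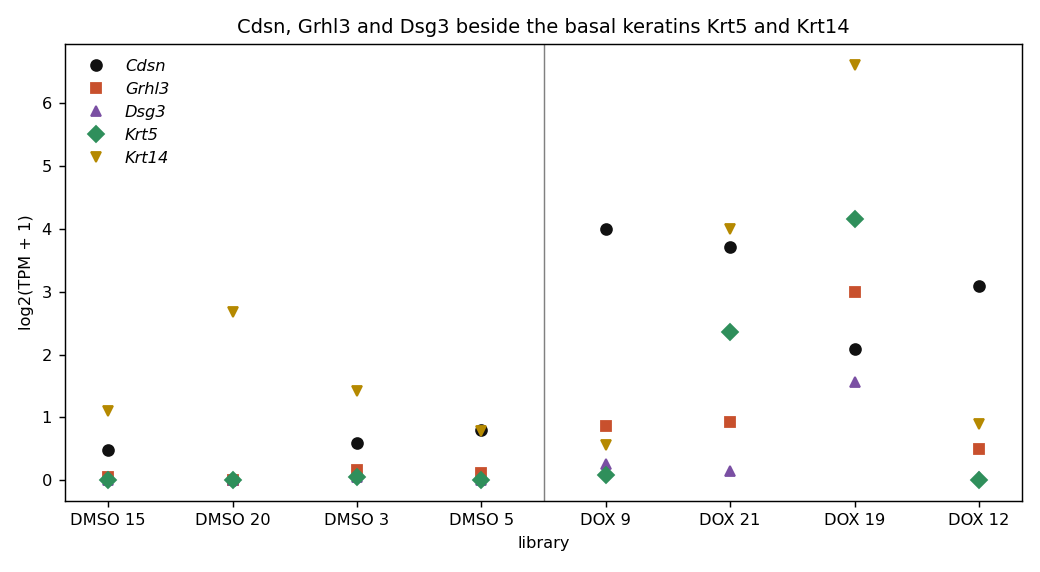
Points give log2(TPM + 1) in each library for Cdsn, Grhl3 and Dsg3 and for the basal keratins Krt5 and Krt14. In DOX 19 Krt14 reaches 97.2 TPM, Krt5 16.9 TPM and Grhl3 6.96 TPM, whereas Cdsn at 3.25 TPM is at its lowest of the DOX libraries.

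Markers of other cell types were read beside these genes. Suprabasal epidermis markers summed to 9.66 to 37.8 TPM in DMSO and 6.47 to 25.7 in DOX, with Krt1 at or under 0.345 TPM in all 8 libraries. Urothelial uroplakins summed to 0.973 to 3.84 TPM in DMSO and 0 to 3.41 in DOX. The collecting duct list summed to 8.83 to 47.5 TPM and 14.7 to 29.2 TPM, with Aqp2 at 0 in 7 of 8 libraries. Most of that sum was Gata3, at 7.70 to 40.0 TPM in DMSO and 12.2 to 29.2 in DOX. The macrophage list summed to 0.693 to 22.4 and 0.0068 to 8.38 TPM. Its high sums were almost all Ptprc (22.3 TPM in DMSO 5 and 8.30 in DOX 12), while Csf1r stayed at or under 0.431 TPM. The endothelial list stayed at or under 1.15 TPM. Stroma summed to 173 to 1433 TPM in DMSO and 385 to 547 in DOX, and the renal epithelium list (Pax8, Cdh16, Epcam and Cdh1) to 109 to 1102 and 208 to 617 TPM. In bulk libraries fewer cells of a type and less RNA per cell cannot be told apart. Per 1000 TPM of the renal epithelium list, Cdsn was 0 to 3.56 in DMSO and 11.3 to 58.0 in DOX, Grhl3 0 to 0.280 and 0.672 to 24.2, and Dsg3 0 to 0.0474 and 0.0568 to 6.75. The Dsg3 values on either side of that gap rest on 1 read in DMSO 15 and 7 reads in DOX 12.

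Other genes of the same programme were listed by role. Of 139 listed genes 137 were in the files, 114 had counts and 90 received an adjusted p, and 0 of the 90 were called, beside 0.147% of all genes, a share at which a list of this size would rarely hold a call. At an unadjusted p under 0.05, DESeq2 had 4 genes higher and 6 lower, 11.1% of the 90 beside 5.28% of all genes, and edgeR, which called 0 of 73, had 6 (8.22% beside 3.06%). The median log2 fold change of the 90 was -0.12, beside -0.07 over all genes with an adjusted p, with 39 positive and 51 negative.

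In the cornified envelope list, which holds loricrin and the small proline-rich and late envelope proteins, 20 of 50 genes received an adjusted p and the median log2 fold change was -0.71, with 6 positive and 14 negative and 0 called. The smallest adjusted p was 0.203 in DESeq2, and the 4 genes under an unadjusted p of 0.05 were lower in DOX: Tchh, Sprr2e, Sprr2f and Sprr2g. The most abundant were Sprr2f at 32.3 to 414 TPM in DMSO and 19.6 to 71.6 in DOX, Sprr2g at 28.1 to 376 and 33.3 to 62.6, and Lor, the main envelope protein of skin, at 2.63 to 26.4 and 2.47 to 12.9. Sprr2 genes are near copies of each other and their reads may be split unevenly among them or counted for more than 1 of them. Sprr2a1 and Sprr2a2 had the same TPM in all 8 libraries and the same log2 fold change (-1.84). The same values thus enter the 20 genes, the 14 negative ones and the median for each of these genes. Without DMSO 15, Sprr2f, Sprr2g and Tchh were called, and the calls over all genes went from 25 to 75. DMSO 15 had the most stroma marker signal of the 8 libraries (1433 TPM) and the least of renal epithelium (109 TPM), and the part of this in the envelope genes was not tested.

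Among stratified epithelial keratins, 10 of 12 received an adjusted p, the median log2 fold change was 0.38, and 0 were called. Krt5 and Krt14 were higher and Krt17, a keratin of injured and appendage epithelium, lower at an unadjusted p under 0.05, and the smallest adjusted p in DESeq2 was 0.0599, of Krt5, which was called without DMSO 3 and without DOX 12. Krt14 lay at 0.721 to 5.41 TPM in DMSO and 0.478 to 97.2 in DOX, Krt17 at 20.6 to 91.9 and 3.21 to 31.0, and Krt10 at 6.14 to 22.1 and 3.90 to 12.8. The Krt14 values of DOX 9 and DOX 12 were under 1 TPM.

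Among the enzymes and lipid transporters of the skin barrier, Abca12 alone was under an unadjusted p of 0.05 in DESeq2, and 0 of 10 in edgeR. Abca12 was higher in DOX but near the floor, at 0 TPM in DMSO and 0 to 0.139 in DOX. Of the 26 barrier genes 14 had an adjusted p, with a median of -0.11. Their most abundant genes were the glucosylceramide synthase Ugcg at 18.4 to 60.2 TPM in DMSO and 26.3 to 33.0 in DOX, and the membrane proteases St14 at 9.29 to 54.4 and 14.7 to 54.7 and Prss8 at 2.39 to 25.9 and 3.86 to 14.2. Of the remaining desmosome genes 9 of 13 had an adjusted p, with a median of -0.04. Jup, the plaque protein plakoglobin and the one gene of this list under an unadjusted p of 0.05, lay at 45.6 to 92.2 TPM and 79.8 to 118, Pkp3 at 3.46 to 27.5 and 4.90 to 15.1, and Perp at 22.02 to 109 and 56.1 to 90.3. Pkp3 sums transcripts that share reads, and its mean fell from 12.5 to 6.36 TPM with 1 transcript.

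Transcription regulators of squamous cells gave 26 of 27 genes with an adjusted p, a median of -0.18 and 0 calls, with Elf5 alone under an unadjusted p of 0.05. Cebpb lay at 512 to 1038 TPM in DMSO and 713 to 1063 in DOX, the epithelial factor Elf3 at 16.2 to 219.7 and 49.0 to 186, and Trp53 at 124 to 138 and 141 to 201. These are sums over transcripts, and with 1 transcript per gene the mean TPM fell from 813 to 271 for Cebpb, from 104 to 51.1 for Elf3 and from 146 to 71.1 for Trp53. Of 8 genes controlled by grainyhead-like factors 7 had an adjusted p, with a median of -0.25, and 0 were under an unadjusted p of 0.05. Their most abundant were Cdh1 at 15.2 to 96.9 and 26.9 to 83.0 TPM, Cldn4 at 14.7 to 115 and 43.7 to 125, and Rab25 at 7.10 to 46.9 and 14.1 to 41.7. The 6 other 14-3-3 genes had a median of 0.06 and none was under that threshold, with Ywhaz at 671 to 900.2 TPM in DMSO and 829.7 to 940.2 in DOX, Ywhae at 339 to 378 and 309 to 435, and Ywhaq at 243 to 399.6 and 236 to 349. With 1 transcript per gene the mean of Ywhaz fell from 847 to 195 TPM, below the 365 of Ywhae and the 313 of Ywhaq.

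The genes lie on several chromosomes, and some of them share a chromosome. Cdsn is on chromosome 17 (chr17:35543101-35557180), Grhl3 on chromosome 4 (chr4:135541887-135573632), Grhl1 on chromosome 12 and Grhl2 on chromosome 15. Sprr1a and Ivl are 85.0 kb apart on chromosome 3, Sfn and Grhl3 1939.7 kb apart on chromosome 4, and Dsc3 and Dsg3 507.9 kb apart on chromosome 18. Within 100 kb of Cdsn, 15 genes were annotated, 11 were in the files and 8 had an adjusted p. DESeq2 called 0 of the 8, beside 0.147% of all genes, a share at which so few genes would rarely hold a call. Tcf19, named after its values were seen, was the 1 under an unadjusted p of 0.05, beside 5.28% of all genes. edgeR called 0 of 6. Psors1c2, the nearest protein-coding gene to Cdsn, had 0 to 38.2 normalised counts in DMSO and 2.10 to 48.5 in DOX. Within 100 kb of Grhl3, 5 genes were annotated and 2 had an adjusted p. Of these 0 were called and 0 had an unadjusted p under 0.05, beside the same shares of all genes. The lncRNA Gm30888 overlaps the 5′ end of Grhl3 by 53 bases and was not analysed here. The library kit did not mark strand, so that reads within those bases cannot be assigned to one of them.

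Likeness over libraries was taken as Pearson's r of log2(normalised count + 1) over all 8 libraries, so that group and depth enter every value, among 15927 other genes. It is a description. The genes most like Cdsn were Tut1 (0.976), Mgme1 (0.973), Glb1 (0.960), Qtrt1 (0.959) and Slc26a11 (0.955). Those most like Grhl3 were Fbxo31 (0.987), Alg8 (0.975), Zdhhc6 (0.967), Txndc16 (0.960) and Ecd (0.957). None of these 10 is in the squamous lists. Dsg3 was 14th in likeness to Grhl3 (r = 0.939). The other r with Grhl3 were 0.658 for Trp63, 0.446 for Grhl1, 0.225 for Sfn, -0.139 for Grhl2, -0.213 for Sprr1a and -0.234 for Ivl. With Cdsn they were 0.744 for Trp63, 0.649 for Dsg3, 0.223 for Grhl2, 0.222 for Grhl1, -0.088 for Sprr1a, -0.186 for Sfn and -0.584 for Ivl. Cdsn and Grhl3, chosen for the same group difference, had r = 0.827, which placed Grhl3 516th in likeness to Cdsn and Cdsn 257th in likeness to Grhl3.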

How the data were processed

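Tubuloid RNA was sequenced from 4 DOX and 4 DMSO cultures. The authors made poly-A selected libraries with a SMART-Seq v4 kit (unstranded, no molecular identifiers). The labels name STAR, featureCounts and DESeq2, with versions not given in the sources used here, and the build mm10. The deposited tables give per transcript a raw count, TPM and FPKM, and the deposited FPKM were not used. Counts and TPM were summed by gene symbol, and a read shared by transcripts counts in each. Counting intervals cover counting error only, and PCR copies cannot be removed.

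DOX and DMSO were compared by DESeq2 1.42.0, as in the study's methods, and edgeR 4.0.16 quasi-likelihood test, with Benjamini-Hochberg adjustment (R 4.3.3). Both were also run on simulated counts. The simulated spread was set by a formula, so this checks the code and not the behaviour at the spread of these libraries. Called genes had adjusted p of at most 0.05 and a fold of at least 1.5. Members and lists were chosen with earlier results of these data known. Named genes were the 10 members, called genes and the 3 of highest mean TPM in each list, the 5 most like Cdsn or Grhl3, and markers; genes under an unadjusted p of 0.05 were named after their values were seen. Alternatives are in the closing section. Promoters came from RefSeq (GRCm38.p6).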

Additional observations from a re-analysis of the deposited data

Results flagged for a closer look

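Among 36 groups of 4 libraries, on the log2(normalised count + 1) scale, 3 held a library whose gap to its nearest neighbour exceeded Dixon's critical share of the group's range, where chance gives about 1 in 20, or 1.8. Cdsn in DMSO 20 was at 0 against 5.65 in the next library, a gap of 0.908 of the range. Dsc3 in DOX 9 was at 4.17 with the other DOX libraries at 0, a gap of 1.0 that follows from the tied zeros whatever DOX 9 holds, so that it does not count beside the 1.8. Sprr1a in DOX 9 was at 11.64 against 10.69 in the next library, a gap of 0.942. On the normalised counts themselves, a scale added after the data were seen, the gap was 0.668 of the range for Cdsn, no longer above the critical share, and 0.959 for Sprr1a, still above it; the Cdsn gap thus depends on the pseudocount of 1 that places a count of 0.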

How the results depend on the processing

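The call of 25 genes became 48 with Cook's distance filter off, 16 with at least 10 counts required in every library, 0 in edgeR, 51 without DMSO 20 and DOX 19 together and 40 with the adjusted p relaxed to 0.1, and ran from 14 (without DMSO 3) to 75 (without DMSO 15) with 1 library left out. Of the 10 genes, the 2 called became 0 in edgeR and 0 with at least 10 counts in every library, a filter that removes Cdsn and Grhl3, and 1 to 2 with 1 library left out. The 0 called genes of the lists became 1 with 1 transcript per gene (Krt5), 1 with Cook's filter off (Krt5), 1 without DMSO 20 and DOX 19 together (Elf5) and 1 with the adjusted p relaxed to 0.1 (Krt5), and 0 to 3 with 1 library left out. Neighbours within 100 kb gave 0 calls under every alternative run. Of 142 alternative fold changes of the 10 genes, 138 moved by less than 1 SD, the spread of log2(normalised count + 1) between libraries of a group, and 4 by more: Grhl3 to 3.17 and Dsg3 to 2.94 without DMSO 20 and DOX 19 together, and Dsg3 to 7.99 without DMSO 3 and 3.32 without DOX 19. Against the SE of the fold change, 12 values in 7 genes moved by more. Among the 138, 4 values in 3 genes changed sign: Grhl1 to -0.12 without DMSO 20 and DOX 19 together, Trp63 to 2.10 without DMSO 5 and 0.16 without DOX 9, and Sfn to 0.33 without DMSO 3. The causes were not tested. With 1 transcript per gene, 6 instead of 7 genes had a median TPM of at least 1, and 3 of 31 mean TPM values moved by more than 1 SD, Cebpb to 271, Trp53 to 71.1 and Ywhaz to 195. Another pseudocount on log2 TPM was not run, as that scale is used in a plot alone. No paired analysis was possible because the library numbers in the titles are not shared between the groups.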
